A study of Sus scrofa with 8 samples.

Results

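Squalene epoxidase (SQLE), methylsterol monooxygenase 1 (MSMO1), stearoyl-CoA desaturase (SCD) and insulin-induced gene 1 (INSIG1) were followed in whole blood of miniature pigs given a shochu by-product. These 4 of the 1939 genes named on the array were read from 12 of the 43603 pig probes on the array, those whose gene name, older gene name (SC4MOL for MSMO1) or description gives one of them: 2 for SQLE, 2 for MSMO1, 5 for SCD and 3 for INSIG1. The study profiled 8 arrays, 1 for each animal. The SDW group was 4 female conventional Clawn miniature pigs whose ration held equal weights of dry feed, water and SDW, the shochu distilled water. The control group was 4 females of the same breed and age (8 to 9 months) on the standard dry feed. The labels disagree on the time of blood sampling: the design has 12 weeks, and the description of each animal names 14, 15, 16 or 17 weeks by replicate.

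Animal cells make cholesterol from acetyl-CoA through mevalonate and squalene, and most of the genes in this route are switched on together by the transcription factor SREBP-2 when membrane sterols run low. INSIG1 is a protein of the endoplasmic reticulum that holds the SREBP escort protein SCAP in place when sterols are plentiful, so it acts as a brake. The INSIG1 gene is itself a target of SREBP. SCD puts the first double bond into saturated fatty acids and answers to the related factor SREBP-1c and to the liver X receptor.

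The probes are 60 bases long. A stretch of 30 bases is printed for each of the 7 probes bright enough to be tested, because probes of the same gene did not always follow the same course over the animals, and a probe is what each value below was read from. Probes of a gene are numbered from the brightest. Letters run 5′ to 3′, and capitals mark the common polyadenylation signal AATAAA or its variant ATTAAA where a search of the printed strand found one.
SQLE probe 1: gtgggatctgcaAATAAAatgaagaatcaa
MSMO1 probe 1: ctttttgcaatatactactgttatctgtaa
MSMO1 probe 2: ctaaccttacaaaaaggatttaagtaacgg
SCD probe 1: gtgtttgttcatAATAAAagggaagtgaat
SCD probe 2: tttgggatccttcacagaagaattctctta
INSIG1 probe 1: ttgttATTAAAggcaagtcgccatatttca
INSIG1 probe 2: gtgtgtcactgcATTAAAcatcgggtgttt
Of the 7 tested member probes 4 held one of these hexamers, and of the 5 others 1 did. Over all 43603 probes AATAAA was found in 12.1% and ATTAAA in 4.91%, and 16.7% held at least 1 of them. The reverse complement TTTATT was found in 4.63% and TTTAAT in 3.35%. Of the probes with AATAAA 56.9% were bright enough to be tested, against 37.4% of those without it. The probes of one gene barely overlapped: the longest run of letters shared by any pair was 10 bases (INSIG1 probes 1 and 3). Both tested INSIG1 probes carry the same spleen cDNA accession in the scanner files, but different transcript cluster numbers.

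A probe was tested when its spot was flagged well above background on 4 or more of the 8 arrays, which 17353 probes were. Between 35.2% and 43.6% of probes had that flag on an array, and none was saturated. Precision is limited by how many arrays there are. Levels are log2 processed signals minus the 75th percentile of the same array, so that a level of 0 equals a signal of 40.0 to 73.4 units. The 8 arrays lay on 3 slides, each with both diets: SDW 2, SDW 3 and control 3 on slide 1, SDW 1, control 2 and control 4 on slide 2, and SDW 4 and control 1 on slide 3, which was scanned on a different day. White cell markers such as CXCR2, CD14 and CD3E were well above background on all 8 arrays, but the only probe named for a haemoglobin chain (HBA) was not well above background on any array. Between the diets limma called 0 of the 17353 probes at an adjusted p under 0.05 (0%). At an unadjusted p under 0.05, 0.934% of probes were higher and 0.507% lower in SDW animals.

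The 3 enzymes stood higher and the brake INSIG1 lower in SDW blood by their brightest probes, but none of the 4 passed the threshold and the animals of both diets overlapped for each. SQLE averaged 1.49-fold, MSMO1 1.43-fold and SCD 1.56-fold of the control level, and INSIG1 0.688-fold. Of all tested probes 53% were higher in SDW animals by any amount, and for 10.7% the log2 difference was 0.5 or more in either direction, as for each of these 4. For 0.599% of the tested probes every SDW animal lay above every control, and for 0.386% every one lay below. No tested member probe was among them.

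**Figure D1:**
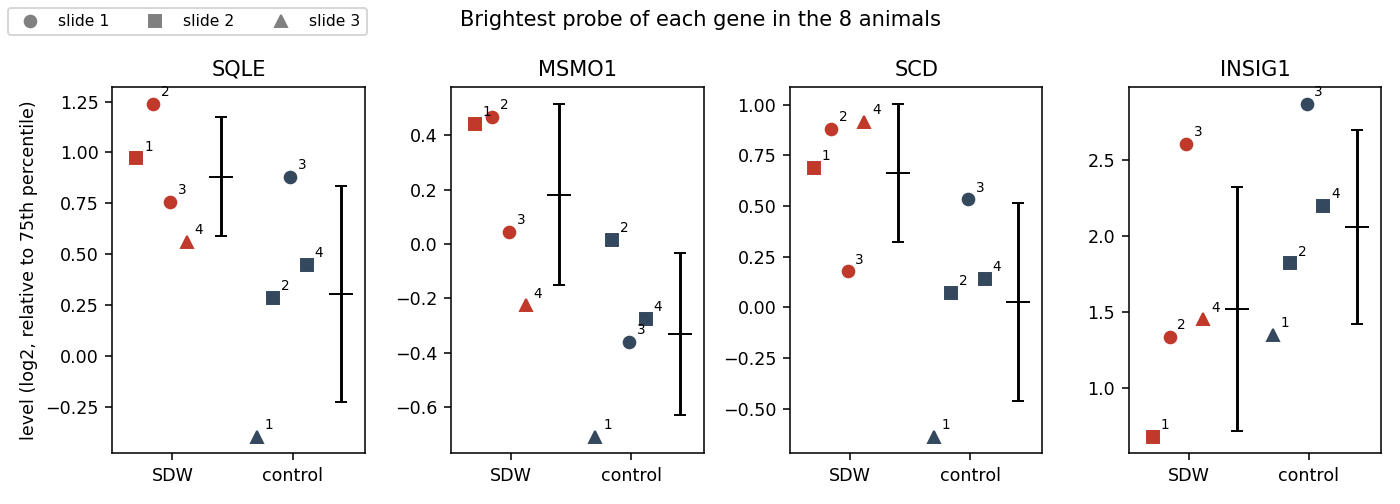
Level of the brightest probe of each gene (vertical axis, log2 relative to the 75th percentile of the array) in the SDW and control animals; numbers are replicates, marker shapes are slides, and the bar to the right of each group is the mean with its SD (n = 4). Control 1 has the lowest level of SQLE (-0.40), MSMO1 (-0.71) and SCD (-0.64), and the diets overlap in every panel.

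SQLE oxidises squalene to its epoxide, a rate-controlling step of sterol synthesis. Its level was 0.97, 1.24, 0.76 and 0.56 in SDW animals 1 to 4, against -0.40, 0.28, 0.88 and 0.45 in control animals 1 to 4. Control 3 reached the range of the SDW animals, while the other controls lay below all of them, control 1 by the widest margin. The mean was 0.88 ± 0.29 in SDW animals and 0.30 ± 0.53 in controls (SD, n = 4 each). The log2 difference was 0.58 (standard error 0.30), with a 95% confidence interval from -0.10 to 1.25 (limma, unadjusted p = 0.0846; adjusted p = 1.00). Without control 1 it was 0.35. Within slides 1, 2 and 3 the difference was 0.12, 0.61 and 0.96, so its sign was the same on each slide while its size was not. The signals behind it were modest, from 59.0 to 173 units in SDW animals and 42.1 to 80.0 in controls, and normexp background correction with an offset of 50 gave 0.28 (0.44 with no offset).

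The second SQLE probe added no measurement of the gene. It was well above background on the array of SDW 4 (27.2 units) and on none of the other 7, where its signal ranged from 2.0 to 10.7 units.

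MSMO1 removes methyl groups from lanosterol-derived sterols further down the route. Its probe 1 stood at 0.44, 0.47, 0.04 and -0.23 in SDW animals 1 to 4, against -0.71, 0.02, -0.36 and -0.28 in control animals 1 to 4. SDW 1 and SDW 2 were the highest of the 8 animals, and the overlap came from control 2, which lay above SDW 4 and just under SDW 3. The mean was 0.18 ± 0.33 in SDW animals and -0.33 ± 0.30 in controls (SD, n = 4 each), which is 0.52 apart on the log2 scale (standard error 0.26), with a 95% interval from -0.06 to 1.09 (limma, unadjusted p = 0.0729; adjusted p = 1.00). By the brightest probe of each of the 4 genes, MSMO1 had the most even difference over the slides, at 0.62, 0.57 and 0.48 within slides 1, 2 and 3. With slide as a block it came to 0.56 (standard error 0.21, limma, unadjusted p = 0.0256, adjusted p = 0.731). In that fit SQLE differed by 0.52, SCD by 0.63 and INSIG1 probe 1 by -0.78 (limma, unadjusted p = 0.0552, 0.0673 and 0.0536). Each of these had an adjusted p of 0.731, and 1141 of the 17353 tested probes had an unadjusted p under 0.05. With normexp the MSMO1 difference was 0.27 with an offset of 50 and 0.45 with none.

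Probe 2 of MSMO1 was dim, being well above background in 3 SDW animals and 1 control, so it entered the test mainly through the SDW arrays and its difference is a value only. Its levels were -1.42, -1.11, -1.74 and -3.81 in SDW animals 1 to 4, against -3.92, -2.47, -2.49 and -1.88 in control animals 1 to 4. As for probe 1, SDW 1 and SDW 2 were the highest and control 1 the lowest. The log2 difference was 0.67 with a standard error of 0.61, and within slides 1, 2 and 3 it was 1.07, 0.75 and 0.12, less even than for probe 1.

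SCD is the delta-9 desaturase that makes oleic from stearic acid. Its probe 1 gave 0.69, 0.88, 0.18 and 0.91 in SDW animals 1 to 4, against -0.64, 0.07, 0.53 and 0.14 in control animals 1 to 4. SDW 3 fell among the controls, and the other 3 SDW animals lay above all controls. The mean was 0.66 ± 0.34 in SDW animals and 0.03 ± 0.49 in controls (SD, n = 4 each), which is 0.64 apart on the log2 scale (standard error 0.30), with a 95% interval from -0.03 to 1.30 (limma, unadjusted p = 0.0586; adjusted p = 1.00). This difference was carried unevenly by the slides: it was -0.0047 within slide 1, 0.58 within slide 2 and 1.55 within slide 3. Without both slide 3 arrays it was 0.33, and without control 1 alone it was 0.42. With normexp it was 0.30 with an offset of 50 and 0.48 with none.

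The other SCD probes were near background. Probe 2 was well above background in 4 SDW animals and 2 controls. It stood at -2.07, -2.30, -1.94 and -1.66 in SDW animals 1 to 4, against -4.03, -2.22, -2.51 and -1.38 in control animals 1 to 4. Its log2 difference of 0.54 (standard error 0.48) became -0.06 without slide 3, since control 1 alone stood far below the rest. Probe 3, named by its description, was well above background in SDW 1 and SDW 2 (11.4 and 15.9 units) and in no control. Probes 4 and 5 were so on no array, probe 5 being described by its likeness to a rat desaturase.

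INSIG1 did not give one answer. Probe 1 was at 0.68, 1.34, 2.61 and 1.45 in SDW animals 1 to 4, against 1.35, 1.82, 2.87 and 2.19 in control animals 1 to 4. SDW 1 was the lowest of all and control 3 the highest, but SDW 3 exceeded every control except control 3. The mean was 1.52 ± 0.80 in SDW animals and 2.06 ± 0.64 in controls (SD, n = 4 each), a log2 difference of -0.54 (standard error 0.44), with a 95% interval from -1.53 to 0.45 (limma, unadjusted p = 0.250; adjusted p = 1.00). Within slides 1, 2 and 3 it was -0.90, -1.33 and 0.10, so the sign turned on slide 3. It was -0.26 without SDW 1, -0.27 without control 3 and -0.90 without SDW 3.

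Probe 2 of INSIG1 was also well above background on all 8 arrays. Its levels were 0.12, -0.26, -1.03 and -0.26 in SDW animals 1 to 4, against 0.35, -0.65, -0.24 and -0.32 in control animals 1 to 4. Several animals changed places between the probes: SDW 3, next to the top by probe 1, was the lowest by probe 2, and control 1 and SDW 1, among the 3 lowest by probe 1, were the 2 highest. Control 3, the highest by probe 1, was exceeded by those 2 alone by probe 2. The log2 difference was -0.15 with a standard error of 0.31 and a 95% interval from -0.84 to 0.55 (limma, unadjusted p = 0.651), and within slides 1, 2 and 3 it was -0.40, 0.60 and -0.61. Over the 8 arrays the correlation of the INSIG1 probes was negative (Pearson r = -0.61, exact permutation p = 0.103; Spearman rho = -0.52, exact permutation p = 0.197), with adjusted p of 0.157 and 0.426 over the 13 relations computed here. It was -0.61 without the 2 arrays farthest from the median of probe 1, and -0.60 over the 6 arrays of slides 1 and 2 (exact permutation p = 0.213). For MSMO1 the r between the probes was 0.81, and for SCD 0.63, given without a test because probe 2 was not well above background on 4 of the 8 arrays for MSMO1 and on 2 for SCD. The MSMO1 value was 0.56 without control 1 and SDW 2. The SCD value rested on control 1 and SDW 4, without which it was -0.50. These 2 arrays are slide 3. Probe 3 of INSIG1, which the description ties to a hamster protein, was not well above background on any array.

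**Figure D2:**
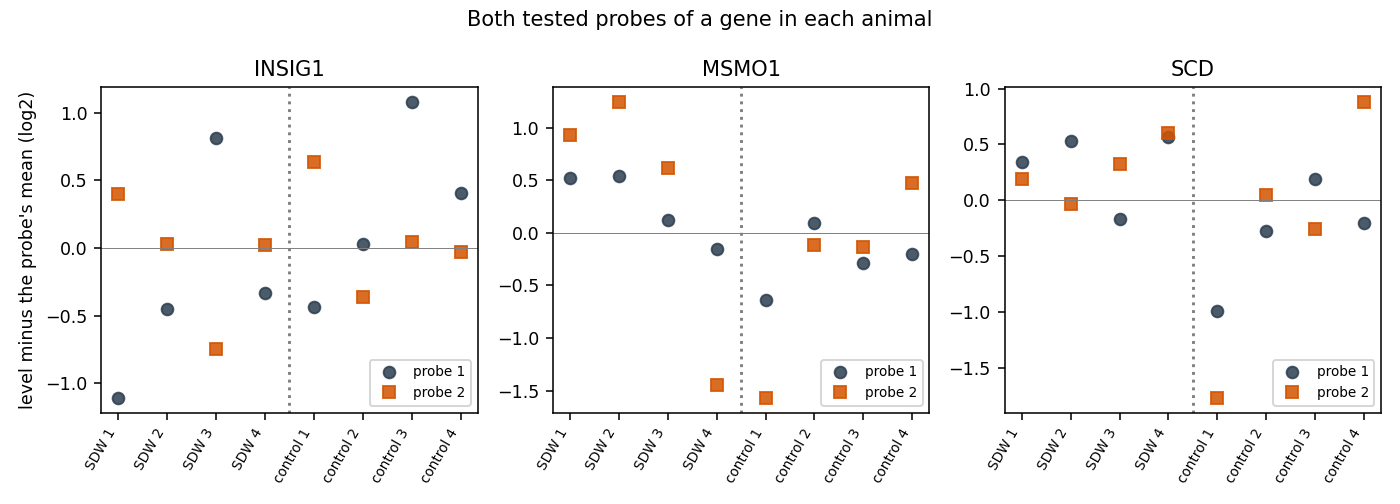
Level of both tested probes of INSIG1, MSMO1 and SCD in each animal, centred on the mean of the probe over the 8 arrays (vertical axis, log2), SDW animals left of the dotted line. For INSIG1 the r between the probes is -0.61 (exact permutation p = 0.103), and for MSMO1 it is 0.81, with probe 2 not well above background on 4 arrays.

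**Figure D3:**
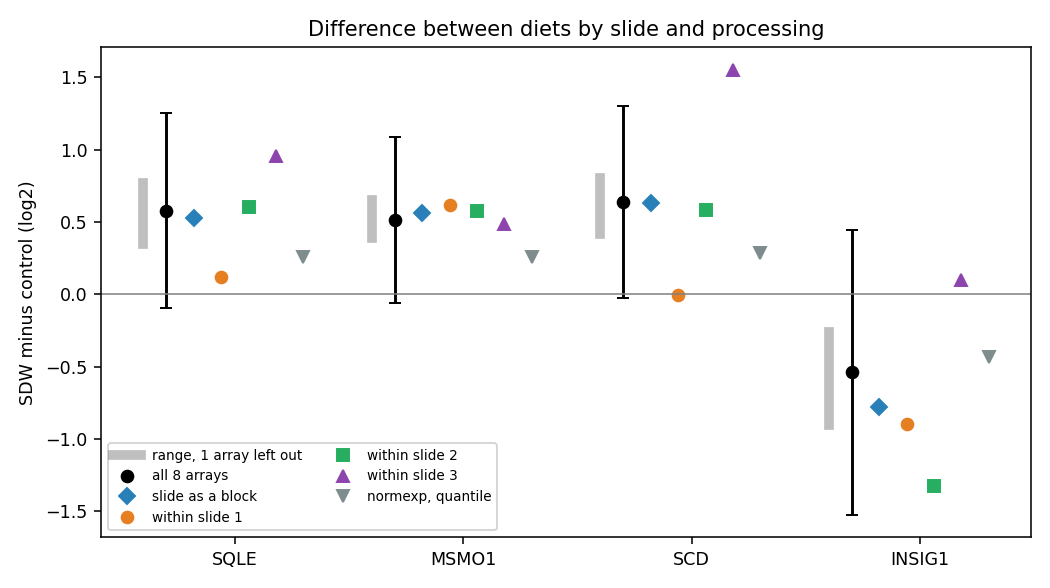
SDW minus control (log2) for the brightest probe of each gene: over all 8 arrays with its 95% confidence interval, with slide as a block, within each slide, with normexp (offset 50) and quantile normalization, and as the range with 1 array left out (grey bar). All 4 intervals over the 8 arrays include 0, SCD is spread from -0.0047 to 1.55 over the slides, and MSMO1 lies between 0.48 and 0.62.

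To set the enzymes against the brake in each animal, the level of each brightest probe was taken relative to its mean over the 8 arrays, and that of INSIG1 was subtracted from the mean of SQLE, MSMO1 and SCD. The result was 1.52, 1.03, -0.78 and 0.47 in SDW animals 1 to 4, against -0.43, -0.20, -1.02 and -0.59 in control animals 1 to 4. All controls were below 0 and 3 of the 4 SDW animals above it, whereas SDW 3 fell among the controls through its high INSIG1 level. The mean was 0.56 ± 0.99 in SDW animals and -0.56 ± 0.35 in controls (SD, n = 4 each), a difference of 1.12 on the log2 scale, and within slides 1, 2 and 3 the difference was 1.14, 1.91 and 0.90. With normexp it was 0.72 with an offset of 50 and 1.00 with none. Read against INSIG1 probe 2 the values were 0.01, 0.55, 0.78 and 0.10 in SDW animals 1 to 4, against -1.51, 0.20, 0.02 and -0.15 in control animals 1 to 4, and the difference was 0.72, or 0.34 without control 1. By that probe SDW 3 was the highest of the 8 animals, and control 1 alone lay far below 0. This measure is built from genes chosen with results of these arrays known and is given without a test.

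**Figure D4:**
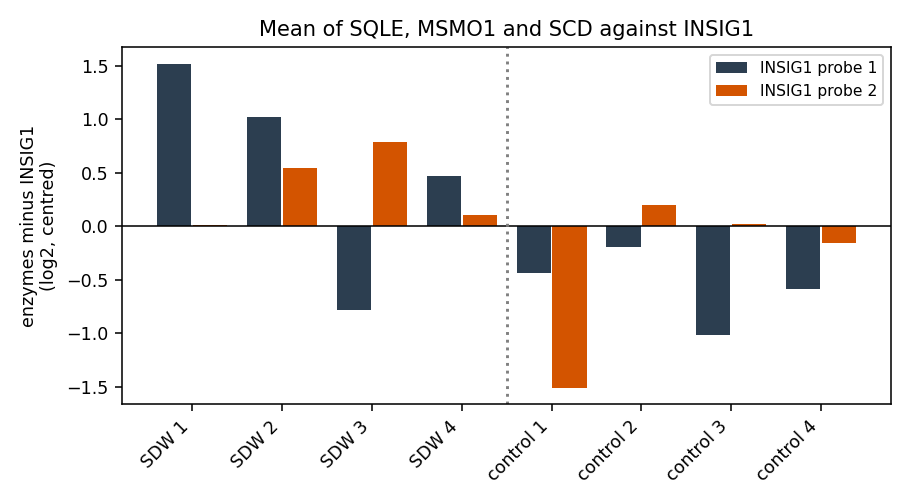
Mean centred level of SQLE, MSMO1 and SCD minus that of INSIG1 (vertical axis, log2) in each animal, SDW animals left of the dotted line, with INSIG1 read from probe 1 or from probe 2. SDW 3 is at -0.78 by probe 1 and at 0.78 by probe 2.

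With both diets pooled, the enzymes had higher correlations with each other than with INSIG1. The members were chosen with results of these arrays known, and levels were not centred on diet or slide. A shared difference between the diets therefore enters each r, and the permutation p-values below do not test a link between the genes apart from it. Over the 8 arrays SQLE and SCD had r = 0.86 (exact permutation p = 0.00786; rho = 0.76, exact permutation p = 0.0368; adjusted p = 0.0786 and 0.226 over 13 relations). The r was 0.50 without control 1 and SDW 2 and 0.93 over the 6 arrays of slides 1 and 2 (exact permutation p = 0.00417; adjusted p = 0.0542), where both genes ranked the animals the same way. SQLE and MSMO1 had r = 0.79 (exact permutation p = 0.0181) and rho = 0.69 (exact permutation p = 0.0694), with adjusted p of 0.0786 and 0.226. Over slides 1 and 2 their r was 0.58 (exact permutation p = 0.237). It fell to 0.34 without control 1 and SDW 2, the arrays farthest from the median of SQLE. MSMO1 and SCD had r = 0.65 (exact permutation p = 0.0788; rho = 0.52, exact permutation p = 0.197; adjusted p = 0.157 and 0.426), with 0.05 without the same arrays and 0.61 over slides 1 and 2. INSIG1 probe 1 had r = 0.04 with SQLE, -0.38 with MSMO1 and -0.15 with SCD (exact permutation p = 0.926, 0.353 and 0.724; rho = -0.21, -0.45 and -0.26), and over slides 1 and 2 the r was -0.33, -0.85 and -0.52. The -0.85 with MSMO1 had an exact permutation p of 0.0306 (adjusted p = 0.199). The share of probes above background varied with the same animals: the percentage of spots flagged above background was lowest in control 1 (35.2%) and highest in SDW 2 (43.6%), and it had r = 0.77 with MSMO1 (exact permutation p = 0.0271; adjusted p = 0.0882), 0.69 with SQLE (exact permutation p = 0.0530) and 0.61 with SCD (exact permutation p = 0.109). Without control 1 and SDW 2 these were 0.39, -0.04 and -0.08, and over slides 1 and 2 they were 0.58, 0.36 and 0.51. The share was 40.5% ± 2.71 in SDW animals and 38.6% ± 2.95 in controls (SD, n = 4 each), and its part in the differences between the diets was not tested.

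Among the 1100 other named genes with a tested probe, the likeness to each member over the 8 arrays was measured by Pearson's r, as a description of arrays that share slides. SQLE was most like DLAT, a subunit of pyruvate dehydrogenase (0.94), GLUL, which makes glutamine (0.92), and CCR3, the eotaxin receptor of eosinophils (0.91). Over slides 1 and 2 alone these were 0.90, 0.86 and 0.92. MSMO1 was most like UQCC (0.95), the progenitor marker CD34 (0.95) and the calcium-binding protein S100A6 (0.90). Over slides 1 and 2 these were 0.94, 0.95 and 0.82. SCD was most like MOCS3, a sulfur-transfer enzyme of molybdenum cofactor synthesis (0.93), the ficolin FCN2 (0.91) and the kinase subunit PRKAR2A (0.85), but over slides 1 and 2 these came to 0.75, 0.80 and 0.57. INSIG1 probe 1 had the closest companions: CRISP2 (0.995), DNASE1L1 (0.987) and the adiponectin receptor ADIPOR1 (0.981). Over slides 1 and 2 they stood at 0.995, 0.992 and 0.979.

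Blood cell markers also varied between the animals. Of 10 neutrophil markers 5 were measured, and all 5 had lower means in SDW animals; the median of their log2 differences was -0.75. Their summed level (linear, in units of the 75th percentile signal) ranged from 432 to 676 in SDW animals and from 603 to 945 in controls. ALOX5AP was the largest part of that sum. Of 5 eosinophil and basophil markers 4 were measured and all 4 had higher means, with a median of 0.68. Their summed level ranged from 55.7 to 138 in SDW animals and from 30.3 to 68.8 in controls. That sum was almost all ALOX15, which differed by 0.82 (standard error 0.37), so it does not show 4 markers moving together. MS4A2 and HDC had negative mean levels in both diets. Their differences of 0.97 and 0.45 fell to 0.51 and 0.15 without slide 3. CCR3, the marker among the closest to SQLE, was at 2.12, 2.24, 1.63 and 0.85 in SDW animals 1 to 4, against 0.36, 1.41, 1.71 and 1.24 in control animals 1 to 4. Other lists did not all go 1 way: 2 monocyte markers were higher and 2 lower, 1 T cell marker higher and 3 lower, and 2 platelet markers higher and 1 lower. The 1 tested B cell marker was lower. CCR2, on the monocyte list, differed by 0.88 with every SDW animal above every control (limma, unadjusted p = 0.00470). The cytotoxic cell gene GNLY differed by -0.71 (limma, unadjusted p = 0.0390). None of these markers passed the threshold. In whole blood a change in the number of a cell type and a change of RNA within it cannot be told apart, and the part of the cell mixture in the member differences was not tested. Of 6 adipocyte markers, ADIPOQ, PLIN1, CIDEC, LPL and FABP4 were well above background on no array, while LEP was measured. Their summed level ranged from 1.07 to 1.70 in SDW animals and from 1.22 to 2.73 in controls. Of the hepatocyte markers TF was measured, while ALB was well above background on at most 2 arrays and APOA1 and TTR on at most 1, too few to be tested. The summed level of these 4 ranged from 1.07 to 10.7 in SDW animals and from 1.03 to 1.97 in controls.

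The other genes of these pathways gave a mixed picture, and none passed the threshold. Of 22 genes of mevalonate and sterol synthesis 7 had a named probe and 6 were tested: 4 were higher and 2 lower, with a median log2 difference of 0.41 against 0.02 over all tested probes. Among the non-members MVK, the mevalonate kinase, differed by 0.30 (standard error 0.29), and its dimmer probe by -0.08. HMGCS1, which joins acetyl-CoA to acetoacetyl-CoA early in the route, differed by -0.15 (standard error 0.57) and was well above background in 2 animals of each diet. The sole gene with a named probe but none tested was PMVK, the phosphomevalonate kinase.

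Of 14 genes that control SREBP or take up and move sterols, 9 were tested, 5 higher and 4 lower, with a median of 0.11. The lysosomal sterol carriers NPC2 and NPC1 differed by 0.38 (standard error 0.35) and 0.23 (standard error 0.29). SREBF1 and SREBF2, the genes of the SREBP factors themselves, varied far more between animals than between diets. SREBF1 was at 2.19, 3.75, 4.87 and 6.66 in SDW animals 1 to 4, against 6.52, 3.35, 5.18 and 4.37 in control animals 1 to 4. SREBF2 was at 2.59, 3.63, 4.72 and 6.28 in SDW animals 1 to 4, against 6.43, 3.50, 4.90 and 4.08 in control animals 1 to 4. Both were highest on the slide 3 arrays, SDW 4 and control 1, and lowest in SDW 1. The dimmer SREBF1 probe differed by -0.66 (limma, unadjusted p = 0.765). The differences of SREBF1 and SREBF2 by their brightest probes were -0.49 (standard error 0.92) and -0.42 (standard error 0.81). With slide as a block they were -0.89 and -0.74 (limma, unadjusted p = 0.0539 and 0.0449, adjusted p = 0.731 each).

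In fatty acid synthesis and desaturation 5 of 18 genes were tested, 2 higher and 3 lower, with a median of -0.03. The fatty acid synthase FASN differed by -0.03 (standard error 0.30), the ATP citrate lyase ACLY by 0.09 (standard error 0.23) and the delta-5 desaturase FADS1 by -0.17 (standard error 0.24). ACSL1, which activates long-chain fatty acids, was at -0.39, 0.59, 2.09 and 5.96 in SDW animals 1 to 4, against 6.61, 0.41, 2.40 and 1.69 in control animals 1 to 4. It too was highest in both slide 3 animals, and its difference was -0.71 with a standard error of 1.52. With slide as a block it was -1.09 (limma, unadjusted p = 0.0249; adjusted p = 0.731). Of the liver X receptor genes and sterol exporters 1 of 12 was tested: NR1H3, the receptor alpha subtype, differed by 0.04 (standard error 0.43), and its dimmer probe by -0.24.

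**Figure D5:**
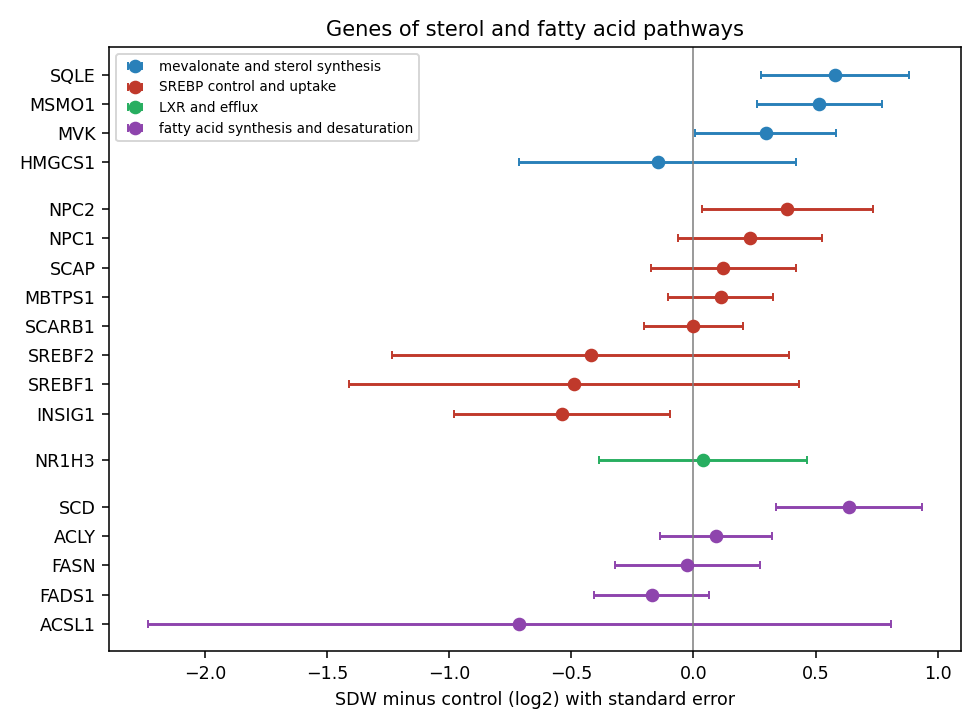
SDW minus control (horizontal axis, log2) with its standard error for the brightest tested probe of genes of 4 pathway lists, grouped by list. MSMO1, SQLE and SCD lie between 0.52 and 0.64, FASN (-0.03) lies near 0, and ACSL1 and SREBF1 have the widest bars.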

How the data were processed

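Whole blood RNA of 8 pigs was hybridised to Agilent 1-colour arrays; per the labels' protocols, 0.5 µg of PAXgene-preserved RNA was amplified and labelled with Cy3. The deposited files hold spot intensity on a linear scale from Agilent Feature Extraction, 10.1.1.1 per the file headers and 9.5.3.1 per the submitters' processing notes, background subtracted and detrended within the array with no normalization between arrays. The other deposited columns used were the mean spot signal and the median background, from which normexp started, and flags, which are not measured values.

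Spots of a probe were averaged after control spots and outlier flags had been removed, and log2 values taken minus the 75th percentile of each array. SDW was set against control with limma 3.58.1 under R 4.3.3 (two-sided, Benjamini-Hochberg over 17353 probes, no covariate), which was tested on simulated data. Alternatives included normexp background correction with an offset of 50. A gene was read from its brightest tested probe. Of 43603 probes 3024 had a gene symbol, 2030 of them through a RefSeq accession and 23 through a name in the description. No genome was used, so positions are not given. The named genes were the 4 members, up to 6 genes of each of 4 pathway lists by size of difference, and the 3 genes most like each member; some genes of the lists are counted but not reported here by name. The limma p-values weigh each difference against the spread between these animals, which limma moderates across all tested probes. The exact permutation p-values weigh a correlation against all reorderings of the arrays. Members and lists were chosen with earlier results of these data known.

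In the authors' value table, 7 of 8 columns matched the scanner file of a different animal on that diet, so replicate names follow the scanner files. Its 75th percentiles lay between 52.4 and 52.9 and its medians between 5.02 and 5.14; its normalization is not stated there. With the replicate numbers used here, deviations of same-numbered animals correlated at -0.17, 0.11, 0.33 and -0.38. Pairing under the numbering of the authors' value table was not checked, so whether the animals were paired is not settled.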

Additional observations from a re-analysis of the deposited data

How the results depend on the processing

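Of the alternatives run, with 1 array left out SQLE ranged from 0.35 to 0.77, MSMO1 from 0.39 to 0.65, SCD from 0.42 to 0.81, INSIG1 from -0.90 to -0.26 and the mean of the enzymes minus INSIG1 from 0.80 to 1.56 (log2, SDW minus control), with no adjusted p under 0.05 in limma. The within-slide values that changed sign were SCD on slide 1 (-0.0047) and INSIG1 on slide 3 (0.10). Those that moved by more than 1 SD were SQLE on slide 1 (0.12), SCD on slide 3 (1.55), INSIG1 on slide 2 (-1.33) and the enzymes minus INSIG1 on slide 2 (1.91). Normexp with an offset of 50 and quantile normalization gave 0.26 for SQLE, 0.26 for MSMO1, 0.29 for SCD, -0.43 for INSIG1 and 0.70 for the enzymes minus INSIG1. Normexp with no offset gave 0.44, 0.45, 0.48, -0.55 and 1.00, and the offset added to the processed signal with no normexp gave 0.36, 0.27, 0.37, -0.42 and 0.75 (both chosen after seeing the data). Read against INSIG1 probe 2, the enzyme difference ranged from 0.34 without control 1 to 0.91 without control 2. The other INSIG1 probe, an alternative chosen after seeing the data, gave -0.15. Quantile normalization, the array median and the authors' value table kept every sign. The array median could not alter the enzymes minus INSIG1, since it shifts all probes of an array alike. The filters on dim probes leave the members' differences as they are by construction. The count of probes at an adjusted p under 0.05 was 0 in every fit but the one without slide 3, where it was 1, an unnamed probe (log2 difference 5.21, adjusted p = 2.76e-05 in limma; 2.80 and 1.00 over all arrays). The count at an unadjusted p under 0.05 was 250, and with slide as a fixed block 1141, as a random block 635, without a filter 824, without slide 3 543, and with 1 array left out from 179 to 519. Each replicate block held 1 array of each diet, so the members' differences could not change under it. In that fit the limma unadjusted p was 0.124 for SQLE (0.58) and 0.0726 for INSIG1 (-0.54), and 0 probes passed. With 4 animals a diet the intervals of all 4 members include 0, which does not show that the diets are alike.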
